A study of Mus musculus with 9 samples.

Results

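The expression of 10 genes whose products fuse, divide or process the membranes of mitochondria was described in RNA sequencing libraries of mouse dendritic cells (DCs). The genes were chosen by name, as the rows of the count table with the symbols *Mfn1*, *Mfn2*, *Opa1*, *Oma1*, *Yme1l1*, *Dnm1l*, *Fis1*, *Mff*, *Mief1* and *Mief2*. They are 10 of the 55471 genes in the table, of which 25539 had 0 counts in every library, and all 10 were among the 16260 genes kept for testing. The lowest count of any of them in a library was 403. The DCs were wild type and were grown from the bone marrow of C57BL/6 mice (female, 8 to 20 weeks old in the study's methods) with GM-CSF, a growth factor that yields DCs in culture. One group was left unstimulated, one received LPS (100 ng/mL), a bacterial ligand of TLR4, and one received IFN-β (1000 U/mL), an antiviral cytokine. All groups were sampled at 6 h, with 3 libraries (A, B and C) per group. The labels do not say whether the 3 libraries came from separate mice or cultures, so the p-values measure the spread between these libraries, which may be technical. The study compared LPS with IFN-β because DCs treated with them differ in their use of mitochondrial respiration.

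Mitochondria form a network that is remodelled by fusion and fission. The mitofusins MFN1 and MFN2 tether and fuse outer membranes, and OPA1, a dynamin-like GTPase, fuses inner membranes and holds the cristae in shape. The inner membrane proteases OMA1 and YME1L1 cut OPA1 into shorter forms, and the balance of long and short forms sets how much the inner membrane fuses. Fission is carried out by DRP1, the product of *Dnm1l*, which is recruited to the outer membrane by FIS1, MFF and the proteins of *Mief1* and *Mief2*. OPA1 cleavage and DRP1 recruitment are controlled on the proteins, by stress, membrane potential and phosphorylation, and mRNA counts do not measure them.

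The promoter windows of the genes the results turn on are shown because *Mfn1* and *Mfn2* fell together under both stimuli, *Yme1l1* rose under both, and *Opa1* is the substrate of the *Yme1l1* protein. Windows of 300 bases, from 250 before to 50 after the annotated transcription start, were taken from RefSeq (GRCm38.p6). All 10 genes had a window, with 15 windows in all, and the GC content of the window nearest to each gene's annotated start ranged from 49.0% to 68.7%. In the sequences, capitals mark letters that matched a searched motif on either strand. The *Mfn1* window is chr3:32529232-32529531 on the plus strand, the *Mfn2* window is chr4:147904649-147904948 on the minus strand, the *Opa1* window is chr16:29579084-29579383 on the plus strand, and the *Yme1l1* window is chr2:23156255-23156554 on the plus strand.
Mfn1: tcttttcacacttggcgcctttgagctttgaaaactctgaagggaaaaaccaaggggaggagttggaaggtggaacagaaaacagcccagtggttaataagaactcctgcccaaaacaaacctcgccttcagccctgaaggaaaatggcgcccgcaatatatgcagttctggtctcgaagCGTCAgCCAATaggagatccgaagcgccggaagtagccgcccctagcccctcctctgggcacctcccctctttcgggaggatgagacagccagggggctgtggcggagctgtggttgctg
Mfn2: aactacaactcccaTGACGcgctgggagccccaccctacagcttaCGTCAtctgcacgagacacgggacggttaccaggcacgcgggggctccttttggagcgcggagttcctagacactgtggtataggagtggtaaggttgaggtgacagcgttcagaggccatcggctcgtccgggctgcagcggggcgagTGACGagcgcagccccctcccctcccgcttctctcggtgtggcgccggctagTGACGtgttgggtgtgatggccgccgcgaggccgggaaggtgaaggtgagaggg
Opa1: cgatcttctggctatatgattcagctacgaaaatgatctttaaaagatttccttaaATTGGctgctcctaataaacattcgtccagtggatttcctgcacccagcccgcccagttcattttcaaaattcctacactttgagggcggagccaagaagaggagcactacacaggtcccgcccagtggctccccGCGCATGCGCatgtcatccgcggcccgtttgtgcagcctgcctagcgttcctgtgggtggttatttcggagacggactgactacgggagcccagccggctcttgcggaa
Yme1l1: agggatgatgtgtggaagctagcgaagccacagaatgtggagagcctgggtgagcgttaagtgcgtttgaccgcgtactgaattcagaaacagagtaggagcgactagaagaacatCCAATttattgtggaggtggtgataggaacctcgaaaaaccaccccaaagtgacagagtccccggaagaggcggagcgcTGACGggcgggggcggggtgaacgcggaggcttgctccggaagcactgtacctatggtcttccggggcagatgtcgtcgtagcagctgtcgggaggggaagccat

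In the window nearest to each gene's annotated start, 6 motifs were searched on both strands. The core of the interferon-stimulated response element was found in 0 of the 10 genes and in 3.44% of all 32851 windows. The GAS motif of STAT factors (TTCNNNGAA) was found in 0 of 10 and in 8.3% of all windows, and the motif of the estrogen-related receptors (AAGGTCA), partners of PGC-1 coactivators, in 0 of 10 and 4.72%. The motif of the factor NRF1 was found in 2 of 10 genes, *Opa1* and *Oma1*, and in 4.6% of all windows. The TGACG motif, which is bound by CREB and ATF factors, was found in 6 of 10 genes and in 20.8% of all windows. The genes with it were *Mfn1*, *Mfn2*, *Oma1*, *Yme1l1*, *Mff* and *Mief1*. The CCAAT box was found in 7 of 10 genes and in 37.4% of all windows. Those were *Mfn1*, *Opa1*, *Yme1l1*, *Dnm1l*, *Fis1*, *Mff* and *Mief2*. In the *Mfn1* window, the TGACG motif, read on the minus strand, lies 1 base from a CCAAT box. A match is a description of letters in these windows and not a measured binding site.

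Between 33425803 and 43735199 counts were assigned to genes per library. Summed over 10 stimulation markers, such as *Il12b* and *Isg15*, CPM (the count of a gene per unit of library size, corrected by TMM factors for composition) ranged from 343 to 560 in unstimulated, 27600 to 29900 in LPS and 4340 to 4950 in IFN-β libraries. Of 8 DC markers, 7 had at least 10 counts in every library, and their summed CPM was 5040 to 6130, 6970 to 7790 and 5640 to 5990 in the same order. *Cd209a*, a marker of monocyte-derived DCs, was at or near 0, with at most 0.361 CPM. All 7 macrophage markers were detected, with summed CPM of 980 to 1520, 1580 to 2300 and 1890 to 2270, and their part in the results was not tested. Neutrophil markers summed to at most 23.5 CPM, with the defining marker *Ly6g* at no more than 0.266 CPM. Mast cell and basophil markers summed to at most 1.22 CPM, those of T, B and NK cells to at most 0.456 CPM, and erythroid markers to at most 0.0552 CPM. In bulk libraries, fewer cells of a type and less RNA per cell cannot be told apart.

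Library size alone in place of TMM turned the sign of several small changes. With the size factors of DESeq2 and with upper-quartile factors, *Dnm1l*, *Fis1*, *Mff* and *Mief2* stayed higher with LPS. TMM factors were 1.18 to 1.26 in unstimulated, 0.783 to 0.841 in LPS and 0.977 to 1.02 in IFN-β libraries. Scaling by library size alone shifted the median of the log2 fold changes over all tested genes by −0.58 for LPS, by −0.31 for IFN-β and by 0.27 for IFN-β against LPS. The share of calls that were higher was 48.1% with TMM and 21.9% with library size alone for LPS, 50.3% and 22.3% for IFN-β, and 52.5% and 77.9% for IFN-β against LPS. The 10 genes together took 0.0609% to 0.0631% of counts in unstimulated, 0.0492% to 0.0522% in LPS and 0.0529% to 0.0564% in IFN-β libraries, whereas their summed CPM on the TMM scale was 500.0 to 516, 587 to 652 and 538 to 578. The share of counts was thus lowest, and the scaled sum highest, in the LPS libraries, and neither measure overlapped between the groups. Ratios of 2 genes within a library do not use the scaling and are given below for that reason.

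**Figure D1:**
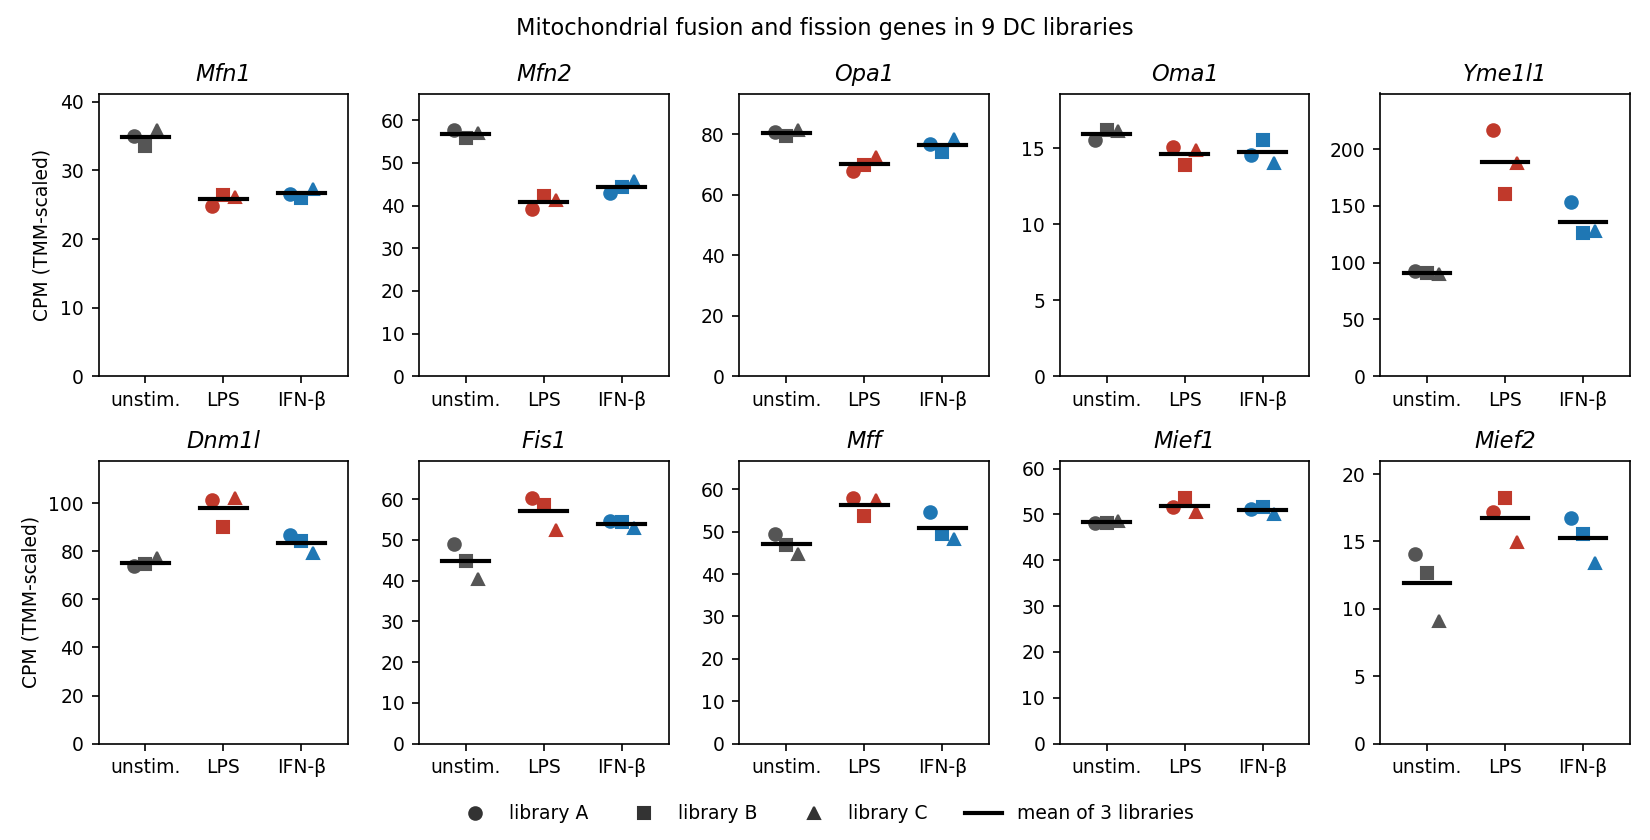
TMM-scaled CPM (vertical axis, starting at 0) of the 10 genes in the 9 libraries by group, with a symbol per library and a line at the mean of 3. *Mfn1* and *Mfn2* are lower in all stimulated libraries than in all unstimulated ones, with fold changes that are also below 0 with library size alone, and *Yme1l1* is highest in LPS, between in IFN-β and lowest in unstimulated libraries, from 90.0 to 217 CPM. With library size alone, the mean of *Dnm1l*, *Fis1*, *Mff* and *Mief1* is lower, not higher, under both stimuli, and that of *Mief2* is lower under LPS.

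LPS called 8 of the 10 genes, 5 higher and 3 lower, by the quasi-likelihood test of edgeR (Benjamini-Hochberg adjustment over all tested genes). *Yme1l1*, *Dnm1l*, *Fis1*, *Mff* and *Mief2* were the 5 higher genes on the TMM scale, and of them only *Yme1l1* was also higher with library size alone, where 1 gene was called higher and 8 lower. *Mfn1*, *Mfn2* and *Opa1* fell under both scalings. Of all tested genes 68.2% were called, 32.8% higher and 35.4% lower, so calls were frequent throughout the transcriptome. The scaled CPM of the LPS and unstimulated libraries did not overlap for any of the 10 genes. How many of all tested genes also had no overlap was not counted, so this is not read as particular to the 10 genes. The median log2 fold change was 0.18 over the 10 genes and −0.04 over all tested genes. In absolute size, the median was smaller in the 10 genes, at 0.37, than in all tested genes, at 0.65. All tested genes include ones with far fewer counts than the 10 genes. No comparison with genes of like counts was made, here or below.

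IFN-β called 4 genes, *Yme1l1* and *Fis1* higher and *Mfn1* and *Mfn2* lower, in the same test, whereas with library size alone 1 was higher and 6 lower, and *Fis1* turned to −0.03. Of all tested genes, 46.9% were called, 23.6% higher and 23.3% lower. The groups did not overlap for 7 of the 10 genes, and they overlapped for *Oma1*, *Mff* and *Mief2*. Here too, overlap was not counted over all tested genes. With the library letter as a block, 6 genes were called, 4 higher and 2 lower. The median log2 fold change was 0.10 over the 10 genes and −0.02 over all tested genes. In absolute size, the median was 0.21 in the 10 genes and 0.35 in all tested genes. The LPS and IFN-β comparisons share the unstimulated libraries, so their values are given side by side.

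**Figure D2:**
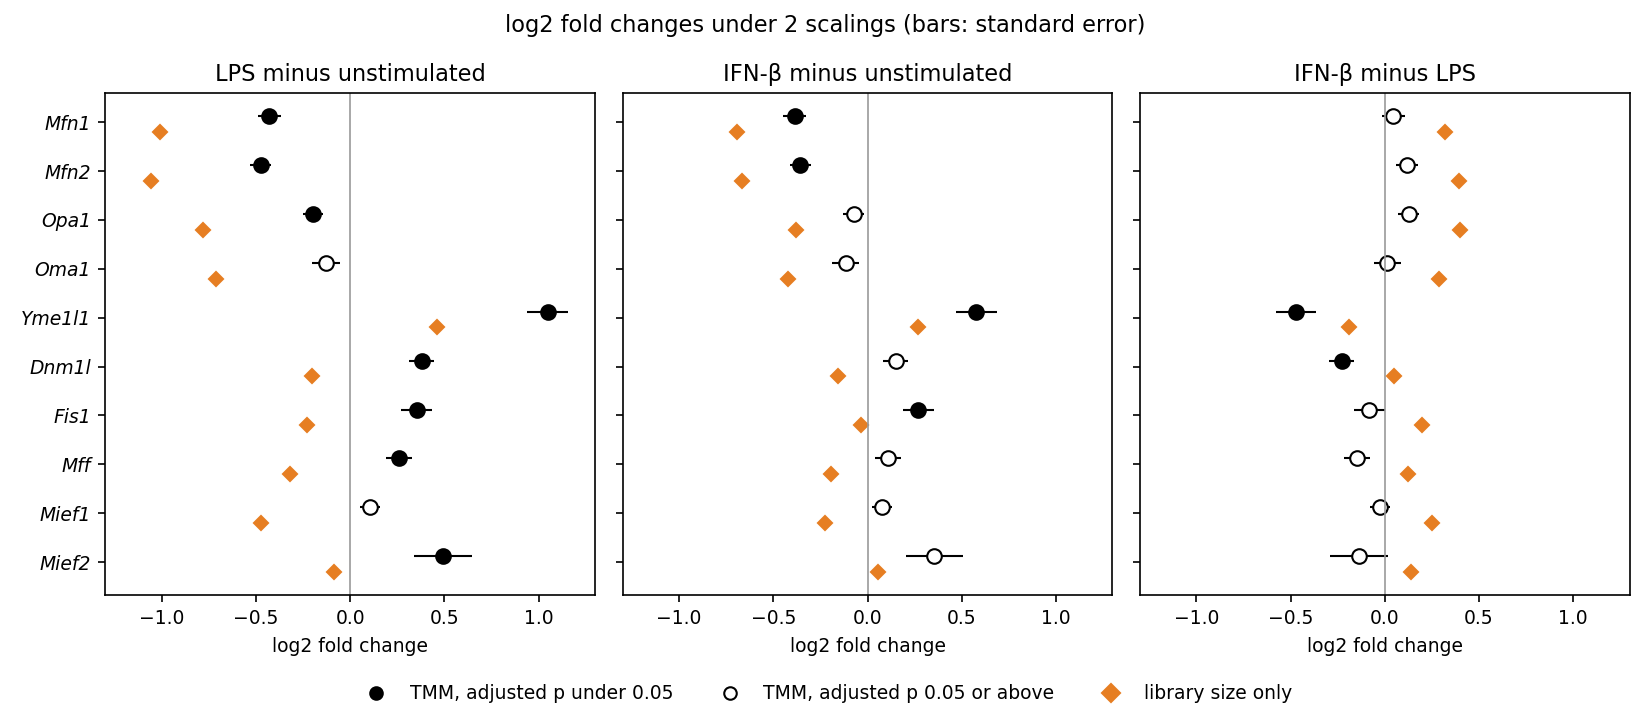
Log2 fold change (horizontal axis) of the 10 genes in the 3 comparisons, as circles with standard errors for TMM scaling (filled, adjusted p under 0.05) and as diamonds for library size alone. *Yme1l1* is on the same side of 0 under both scalings in every comparison, as are *Mfn1*, *Mfn2*, *Opa1* and *Oma1*, and *Dnm1l*, *Fis1*, *Mff* and *Mief1* change side in every comparison.

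The mitofusins fell under both stimuli. *Mfn1* (ENSMUSG00000027668, GRCm38 chromosome 3, 32529465 to 32579239, plus strand) had 35.1, 33.5 and 35.9 CPM in the unstimulated libraries A, B and C, 24.9, 26.5 and 26.1 CPM with LPS, and 26.6, 26.0 and 27.4 CPM with IFN-β. Every stimulated library was below every unstimulated one, and the LPS and IFN-β libraries overlapped. *Mfn1* fell by 25.8% with LPS (log2 fold change −0.43 ± 0.06 SE, adjusted p = 9.53e-05, edgeR) and by 23.5% with IFN-β (−0.39 ± 0.06, adjusted p = 0.000495, edgeR), and with library size alone the changes were −1.01 and −0.69. *Mfn2* (ENSMUSG00000029020, chromosome 4, 147873599 to 147904704, minus strand), which also tethers mitochondria to the endoplasmic reticulum, had 57.6, 55.7 and 57.0 CPM unstimulated, 39.1, 42.1 and 41.3 CPM with LPS, and 43.0, 44.3 and 45.7 CPM with IFN-β. The 3 groups did not overlap, and LPS was lowest. *Mfn2* fell by 28.0% with LPS (−0.48 ± 0.06, adjusted p = 2.64e-05, edgeR) and by 21.9% with IFN-β (−0.36 ± 0.06, adjusted p = 0.000517, edgeR). With LPS, 33.5% and 31.8% of all tested genes had a lower log2 fold change than *Mfn1* and *Mfn2*. With IFN-β, these shares were 23.1% and 24.6%. The difference between IFN-β and LPS was 0.05 for *Mfn1* and 0.12 for *Mfn2*, and neither passed the test (adjusted p = 0.579 and 0.117, edgeR), whereas with library size alone both passed, at 0.32 and 0.39 (adjusted p = 0.00447 and 0.000814).

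The raw counts of *Mfn1* per count of *Mfn2* kept a narrow range. The ratio was 0.609, 0.602 and 0.629 in unstimulated, 0.636, 0.629 and 0.633 in LPS, and 0.619, 0.587 and 0.599 in IFN-β libraries. The log2 difference was 0.05 for LPS and −0.03 for IFN-β, with groups that overlapped. For IFN-β against LPS it was −0.07 with groups that did not overlap (exact two-sided permutation p = 0.1, the smallest that 3 against 3 allows).

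*Opa1* (ENSMUSG00000038084, chromosome 16, 29579334 to 29654884, plus strand) had 80.7, 79.3 and 81.3 CPM unstimulated, 67.9, 69.8 and 72.7 CPM with LPS, and 76.8, 74.2 and 78.5 CPM with IFN-β. The 3 groups did not overlap, in the order unstimulated, IFN-β, LPS. *Opa1* fell by 12.8% with LPS (−0.20 ± 0.06, adjusted p = 0.00799, edgeR), while the IFN-β difference of −0.07 ± 0.06 did not pass (adjusted p = 0.306, edgeR). *Opa1* was at −0.78 with LPS and −0.38 with IFN-β when scaled by library size alone, and the latter passed (adjusted p = 0.000554). The difference between IFN-β and LPS was 0.13 ± 0.06 and did not pass (adjusted p = 0.0823, edgeR), but it passed with the library letter as a block (adjusted p = 0.0476) and with library size alone (0.40, adjusted p = 0.000402).

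The proteases that process OPA1 differed from each other. *Yme1l1* (ENSMUSG00000026775, chromosome 2, 23156369 to 23199260, plus strand) encodes the ATP-dependent protease of the intermembrane space side and cuts OPA1 in unstressed cells. It had 92.5, 90.9 and 90.0 CPM unstimulated, 217, 161 and 188 CPM with LPS, and 153, 126 and 128 CPM with IFN-β. The groups did not overlap, and the spread was wider in the stimulated groups, with a coefficient of variation of 1.39% unstimulated, 14.8% with LPS and 11% with IFN-β. *Yme1l1* rose 2.07-fold with LPS (1.05 ± 0.11, adjusted p = 8.3e-06, edgeR) and 1.49-fold with IFN-β (0.58 ± 0.11, adjusted p = 0.00143, edgeR). With library size alone it was still higher, by 0.46 and 0.27. The IFN-β response was smaller than the LPS response by 0.47 ± 0.11 (log2 difference −0.47, adjusted p = 0.00426, edgeR), and with library size alone this difference was −0.19 and missed the threshold (adjusted p = 0.098). Of all tested genes, 84.2% had a lower log2 fold change with LPS and 83.1% with IFN-β. The share of *Yme1l1* among the counts of the 10 genes was 18.0% ± 0.0746 (SD, n = 3) unstimulated, 30.3% ± 2.93 with LPS and 24.6% ± 1.70 with IFN-β.

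*Oma1* (ENSMUSG00000035069, chromosome 4, 103313812 to 103371868, plus strand), a protease that is activated when membrane potential is lost, did not pass the test in any comparison. It had 15.5, 16.2 and 16.2 CPM unstimulated, 15.1, 13.9 and 14.9 CPM with LPS, and 14.6, 15.6 and 14.1 CPM with IFN-β. The LPS libraries were all below the unstimulated ones, and the IFN-β libraries overlapped with both. The log2 differences were −0.13 ± 0.07 with LPS and −0.12 ± 0.07 with IFN-β (adjusted p = 0.14 and 0.217, edgeR). With library size alone all comparisons of *Oma1* passed, at −0.71 with LPS, −0.42 with IFN-β and 0.29 for IFN-β against LPS, and the LPS difference also passed with upper-quartile factors (−0.22). Raw counts of *Oma1* per count of *Yme1l1* were 0.168, 0.178 and 0.18 in unstimulated, 0.0696, 0.0864 and 0.079 in LPS, and 0.0952, 0.123 and 0.11 in IFN-β libraries. The groups did not overlap, and the ratio was 0.445 times the unstimulated value with LPS and 0.621 times with IFN-β (exact two-sided permutation p = 0.1 each, adjusted p = 0.167 over 15 ratio comparisons).

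*Dnm1l* (ENSMUSG00000022789, chromosome 16, 16312230 to 16358959, minus strand), the fission GTPase, had 73.8, 74.6 and 77.2 CPM unstimulated, 101, 90.1 and 102 CPM with LPS, and 86.6, 84.2 and 79.3 CPM with IFN-β. The 3 groups did not overlap on the TMM scale. *Dnm1l* rose 1.3-fold with LPS (0.38 ± 0.07, adjusted p = 0.000423, edgeR), but with library size alone it was lower by −0.20. The IFN-β difference of 0.15 ± 0.07 missed the threshold (adjusted p = 0.0897, edgeR), passed with the block (adjusted p = 0.0486) and was −0.16 with library size alone. IFN-β was below LPS by a log2 difference of −0.23 ± 0.07 (adjusted p = 0.0147, edgeR), which turned to 0.05 with library size alone. Without the IFN-β library C this call was lost, at −0.20 (adjusted p = 0.06). Of the exon bases of *Dnm1l*, 4.67% are shared with an antisense transcript that had at most 13 counts.

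The receptors and adaptors of DRP1 were measured next. *Fis1* (ENSMUSG00000019054, chromosome 5, 136953275 to 136966234, plus strand) had 49.1, 44.8 and 40.4 CPM unstimulated, 60.3, 58.6 and 52.5 CPM with LPS, and 54.6, 54.5 and 52.9 CPM with IFN-β. The unstimulated libraries were below the others, and the LPS and IFN-β libraries overlapped. *Fis1* rose 1.28-fold with LPS (0.35 ± 0.08, adjusted p = 0.00264, edgeR) and 1.21-fold with IFN-β (0.27 ± 0.08, adjusted p = 0.0185, edgeR), whereas with library size alone the values were −0.23 and −0.03. The IFN-β call was lost without the unstimulated library B (adjusted p = 0.0537), without the unstimulated library C (0.0769) and without the IFN-β library A (0.0546).

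*Mff* (ENSMUSG00000026150, chromosome 1, 82724890 to 82752394, plus strand), an outer membrane receptor of DRP1, had 49.3, 46.9 and 44.8 CPM unstimulated, 58.0, 53.7 and 57.4 CPM with LPS, and 54.5, 49.4 and 48.3 CPM with IFN-β. LPS libraries were above the unstimulated ones, and the IFN-β libraries overlapped with both groups. *Mff* rose 1.2-fold with LPS (0.26 ± 0.07, adjusted p = 0.00601, edgeR) and was lower by −0.32 with library size alone. The IFN-β difference was 0.11 ± 0.07 (adjusted p = 0.214, edgeR) and −0.20 with library size alone. IFN-β against LPS gave −0.15 ± 0.07 (adjusted p = 0.094, edgeR), which passed with the block (adjusted p = 0.0279) and without the IFN-β library A (0.0358), and was 0.13 with library size alone.

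*Mief1* and *Mief2* encode adaptors that recruit DRP1 to the outer membrane independently of FIS1 and MFF. *Mief1* (ENSMUSG00000022412, chromosome 15, 80234018 to 80253371, plus strand) had 48.1, 48.1 and 48.6 CPM unstimulated, 51.6, 53.6 and 50.6 CPM with LPS, and 51.2, 51.6 and 50.1 CPM with IFN-β. The stimulated libraries were all above the unstimulated ones, by little. The log2 differences of 0.11 ± 0.05 with LPS and 0.08 ± 0.05 with IFN-β did not pass (adjusted p = 0.0993 and 0.248, edgeR), and they were −0.48 and −0.23 with library size alone. *Mief2* (ENSMUSG00000018599, chromosome 11, 60728398 to 60732951, plus strand) had 14.1, 12.6 and 9.09 CPM unstimulated, 17.2, 18.2 and 14.9 CPM with LPS, and 16.7, 15.6 and 13.4 CPM with IFN-β. It had the widest relative spread of the 10 genes in unstimulated libraries, with a coefficient of variation of 21.5%, and library C was lowest in each group. *Mief2* rose 1.41-fold with LPS (0.49 ± 0.15, adjusted p = 0.0146, edgeR), which was lost without the LPS library B (adjusted p = 0.0564) and was −0.09 with library size alone. The IFN-β difference was 0.35 ± 0.15 (adjusted p = 0.0799, edgeR). It passed with the block (0.36, adjusted p = 0.00269), without the unstimulated library A (adjusted p = 0.0287) and with no filter on low counts (adjusted p = 0.0248). It was 0.19 without the unstimulated library C (adjusted p = 0.25) and 0.053 with library size alone (adjusted p = 0.771).

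IFN-β against LPS called 2 of the 10 genes, *Yme1l1* and *Dnm1l*, both lower, where 49.1% of all tested genes were called, 25.8% higher and 23.3% lower. With library size alone 6 were higher and 0 lower, and with the block 1 was higher and 3 lower. The median log2 difference was −0.05 over the 10 genes and 0.02 over all tested genes. *Fis1*, *Mief1* and *Mief2* gave −0.08, −0.03 and −0.14 without passing (adjusted p = 0.432, 0.704 and 0.485, edgeR), and 0.20, 0.25 and 0.14 with library size alone. *Oma1* gave 0.01 (adjusted p = 0.899, edgeR), and 0.29 with library size alone (adjusted p = 0.0162).

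Within a library, the counts of the fusion genes were lower against those of *Dnm1l* in both stimulated groups. *Opa1* per *Dnm1l* count was 1.09, 1.06 and 1.05 in unstimulated, 0.671, 0.774 and 0.712 in LPS, and 0.887, 0.881 and 0.99 in IFN-β libraries. The 3 groups did not overlap, and the ratio was 0.671 times the unstimulated value with LPS and 0.858 times with IFN-β. In ratios added after the counts were seen, *Mfn2* per *Dnm1l* was 0.781, 0.747 and 0.738 in unstimulated, 0.386, 0.467 and 0.404 in LPS, and 0.496, 0.526 and 0.576 in IFN-β libraries. Its group means fell from 0.755 to 0.418 with LPS and 0.532 with IFN-β, and those of *Mfn1* per *Dnm1l* from 0.463 to 0.264 and 0.32. *Yme1l1* per *Opa1*, the protease against its substrate, rose from 1.13 to 2.67 with LPS and 1.77 with IFN-β, and *Yme1l1* per *Dnm1l* from 1.21 to 1.92 and 1.62. None of these groups overlapped, and each had the exact two-sided permutation p of 0.1, the smallest that 3 against 3 allows (adjusted p = 0.167 over the 15 planned and 0.115 over the 15 added comparisons). The added ratios were picked with these counts known, so their lack of overlap and their p-values are no independent test. Their adjusted p was taken apart from the planned ratios, and the 2 adjusted values cannot be ranked against each other. The fifth added ratio, *Mief1* per *Dnm1l*, was also lower with LPS, at 0.531 against 0.642 without overlap, and at 0.612 with IFN-β it overlapped with the unstimulated libraries (exact two-sided permutation p = 0.2). These are mRNA counts and not divided by length, so the ratio is read between conditions only.

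Ratios were also taken between genes that recruit DRP1. Raw counts of *Mief1* per count of *Mief2* were 3.41, 3.80 and 5.34 in unstimulated, 3.01, 2.94 and 3.39 in LPS, and 3.06, 3.31 and 3.73 in IFN-β libraries. LPS lay below the unstimulated libraries by a narrow gap, at 0.756 times the unstimulated value, and IFN-β, at 0.817 times, overlapped with both. *Mff* per *Fis1* had group means of 1.05 unstimulated, 0.987 with LPS and 0.939 with IFN-β, with LPS overlapping both other groups and IFN-β below the unstimulated libraries by 0.17 on the log2 scale (exact two-sided permutation p = 0.1).

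**Figure D3:**
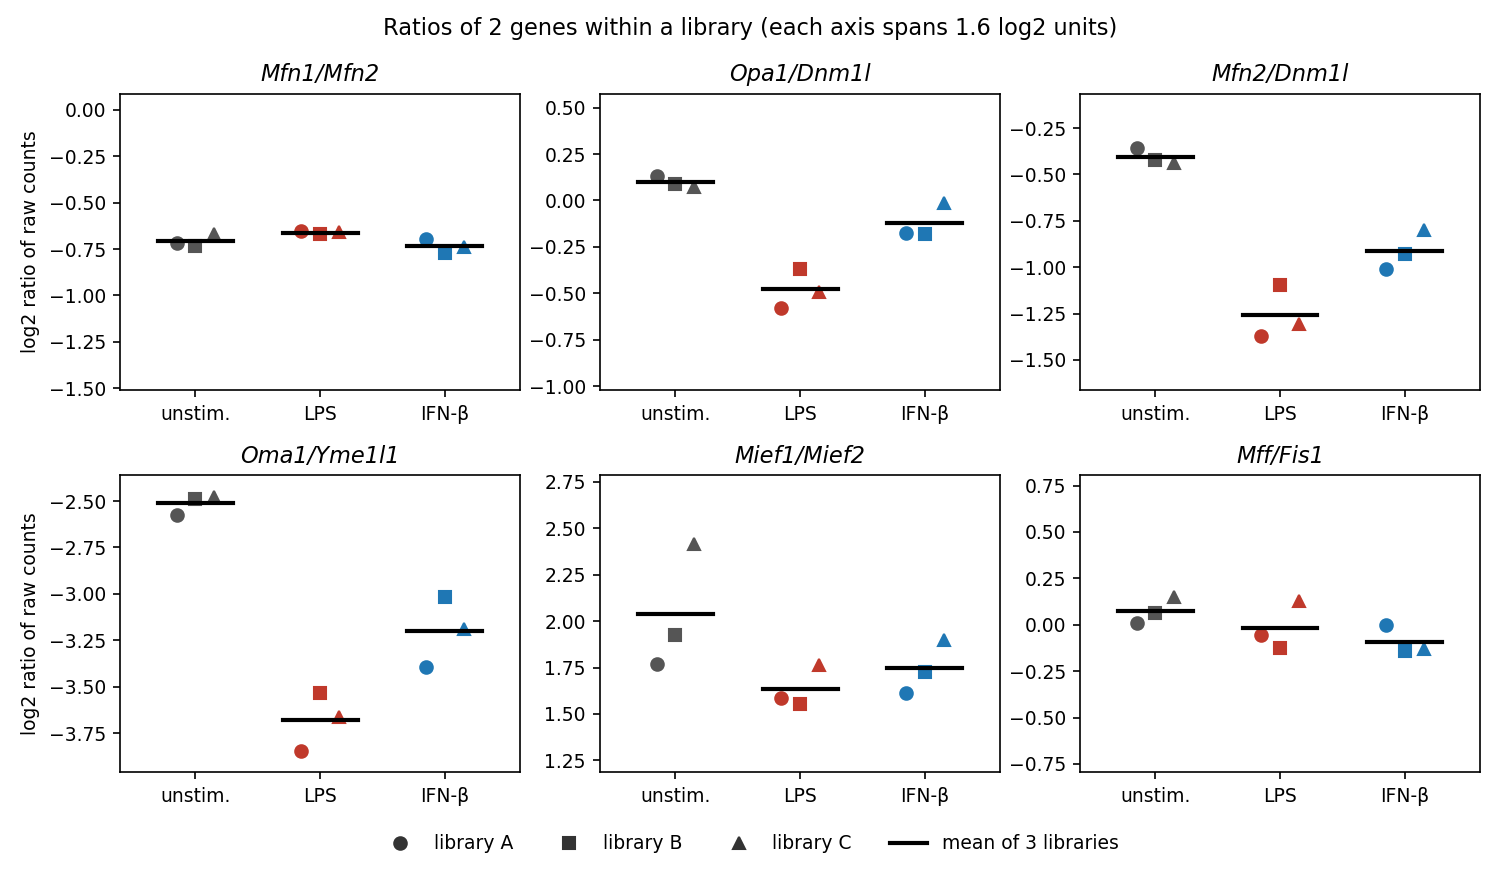
Log2 ratio of the raw counts of 2 genes in each library (vertical axis, spanning the same width in every panel) by group, with a symbol per library and a line at the mean of 3. *Opa1* and *Mfn2* per *Dnm1l* and *Oma1* per *Yme1l1* are lowest in LPS, between in IFN-β and highest in unstimulated libraries, and *Mfn1* per *Mfn2* stays between ratios of 0.587 and 0.636.

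Levels were compared between genes as scaled CPM per kilobase of exon. *Fis1* was highest in every group, with means of 26.1 ± 2.53 (SD, n = 3) unstimulated, 33.3 ± 2.41 with LPS and 31.5 ± 0.549 with IFN-β. In unstimulated DCs, *Dnm1l* (14.5), *Yme1l1* (11.4), *Mfn2* (10.9), *Opa1* (10.2), *Oma1* (7.44), *Mief1* (5.95), *Mfn1* (5.70), *Mff* (4.82) and *Mief2* (4.40) followed, and only the neighbours *Mff* and *Mief2* overlapped over the 3 libraries. With LPS, *Yme1l1* (23.5 ± 3.49) passed *Dnm1l* (18.8 ± 1.29) to stand next to *Fis1*, *Opa1* (8.91) stood above *Mfn2* (7.86), and *Mfn1* (4.23) was last. *Oma1*, *Mief1*, *Mief2* and *Mff* lay between 6.82 and 5.77, each overlapping the next. With IFN-β, *Yme1l1* (17.0 ± 1.86) and *Dnm1l* (16.0 ± 0.711) overlapped, as did *Mief2* (5.61) and *Mff* (5.20), and *Mfn1* (4.36) was again last. The length is the union of all annotated exons, so a gene with long rarely used exons, such as *Mff* with 9757 bases, gets a low value.

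Genes that act around the 10 genes were described from 4 lists written with earlier results of these data known. Of 29 regulators of fusion and fission, 27 were tested. LPS called 6 higher and 17 lower (2 and 22 with library size alone), with a median log2 fold change of −0.29, and IFN-β called 5 higher and 12 lower (2 and 20), with a median of −0.17. The called shares were 85.2% and 63%, beside 68.2% and 46.9% of all tested genes. *Marchf5*, a ubiquitin ligase of the outer membrane that acts on mitofusins and DRP1, rose from a mean of 32.5 CPM to 236 CPM with LPS (2.86 ± 0.12, adjusted p = 1.08e-08, edgeR) and 136 CPM with IFN-β (2.07 ± 0.11, adjusted p = 9.37e-07, edgeR). It was higher by 2.28 and 1.76 with library size alone. *Mtfp1*, an inner membrane protein that promotes fission, fell by 3.10 on the log2 scale with LPS and by 2.03 with IFN-β (adjusted p = 4.45e-05 and 0.000644, edgeR), from counts of 47, 42 and 41 to 2, 4 and 5 with LPS and 15, 10 and 4 with IFN-β. *Miga2*, a mitoguardin that promotes fusion, fell by 1.94 with LPS (adjusted p = 1.28e-07, edgeR). *Akap1*, an outer membrane anchor for protein kinase A, fell by 1.43 with IFN-β (adjusted p = 1.22e-05, edgeR).

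Between IFN-β and LPS, 10 of the 27 regulators were higher with IFN-β and 4 lower (16 and 3 with library size alone). *Inf2*, a formin at the contact of endoplasmic reticulum and mitochondria that takes part in fission, was at 115 CPM with IFN-β and 43.8 CPM with LPS (1.39 ± 0.09, adjusted p = 5.04e-07, edgeR). *Bnip3*, a receptor for removal of mitochondria, was at 32.4 and 12 CPM (1.44 ± 0.27, adjusted p = 0.00117, edgeR), and *Miga2* at 7.64 and 3.77 CPM (1.01 ± 0.12, adjusted p = 4.56e-05, edgeR). All of these were also higher with IFN-β with library size alone.

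Of 16 inner membrane proteases and prohibitins, all tested, LPS called 2 higher and 10 lower, with a median of −0.48, and IFN-β called 2 higher and 11 lower, with a median of −0.35. With library size alone the counts were 1 and 15 for LPS and 1 and 14 for IFN-β. The called shares were 75% and 81.2%, beside 68.2% and 46.9% of all tested genes. *Clpp*, a matrix protease, fell by 1.04 with LPS and 0.78 with IFN-β (adjusted p = 1.92e-05 and 0.000354, edgeR). The prohibitins *Phb* and *Phb2*, whose ring complexes hold inner membrane proteases, fell by 0.69 and 0.60 with IFN-β (adjusted p = 7.16e-05 and 0.000188, edgeR), and *Triap1*, which helps to carry lipids across the intermembrane space, fell by 0.74 with LPS (adjusted p = 5.27e-06, edgeR). *Htra2*, a protease of the intermembrane space, rose by 1.25 with LPS (adjusted p = 4.9e-08, edgeR). This value is uncertain, since 25.6% and 18.2% of its exon bases are shared with *Aup1* and *Loxl3* on the other strand and the strand setting of the counting is not given. In IFN-β against LPS, 1 was higher and 2 were lower (12 and 1 with library size alone), which were *Triap1* (0.34), *Htra2* (−0.68) and *Ttc19* (−0.31), a factor of complex III that passed narrowly (adjusted p = 0.0478, edgeR) and missed with library size alone.

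The MICOS complex and its partners shape the cristae junctions that OPA1 also stabilises. Of 15 such genes, all tested, LPS called 2 higher and 8 lower with a median of −0.20 (1 and 14 with library size alone), and IFN-β called 1 higher and 7 lower with a median of −0.20 (1 and 13). The called shares of 66.7% and 53.3% stood beside 68.2% and 46.9% of all tested genes. *Apool*, a MICOS subunit that binds cardiolipin, rose from 13.6 to 38.1 CPM with LPS (1.49 ± 0.08, adjusted p = 4.83e-08, edgeR) and 24.4 CPM with IFN-β (0.85 ± 0.08, adjusted p = 1.27e-05, edgeR). Its homolog *Apoo* fell by 0.72 and 0.50 (adjusted p = 0.00135 and 0.0156, edgeR). *Samm50*, which inserts barrel proteins into the outer membrane, fell by 0.67 with LPS (adjusted p = 4.4e-06, edgeR), and *Micos13*, a MICOS subunit, fell by 0.46 with IFN-β (adjusted p = 0.00143, edgeR). In the direct comparison of IFN-β with LPS, 3 were higher and 3 lower (9 and 1 with library size alone), among them the MICOS subunits *Chchd6* (0.72) and *Chchd3* (0.37), and *Apool* (−0.64).

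Of 16 genes of mitochondrial transport and tethering, 14 were tested. LPS called 4 higher and 6 lower with a median of −0.11 (3 and 11 with library size alone), and IFN-β called 3 higher and 3 lower with a median of −0.05 (1 and 9). The called shares of 71.4% and 42.9% stood beside the same 68.2% and 46.9% of all tested genes. *Rmdn3*, an outer membrane tether to the endoplasmic reticulum, rose from 20.5 to 75.9 CPM with LPS (1.89 ± 0.08, adjusted p = 1.05e-08, edgeR) and 40.5 CPM with IFN-β (0.99 ± 0.08, adjusted p = 4.59e-06, edgeR). These *Rmdn3* values are uncertain too, since the strand setting of the counting is not given. *Armcx3*, which links mitochondria to their transport machinery, rose by 1.13 and 0.53 (adjusted p = 1.97e-05 and 0.00686, edgeR), the second of which was 0.22 and missed with library size alone. *Kif5b*, the kinesin heavy chain that carries mitochondria along microtubules, rose by 0.98 with LPS (adjusted p = 4.22e-06, edgeR), and *Myo19*, a myosin on the mitochondrial surface, fell by 1.0 with IFN-β (adjusted p = 0.00099, edgeR). With IFN-β against LPS, 1 was higher and 4 lower (8 and 3 with library size alone), with *Rmdn3*, *Kif5b* and *Armcx3* at −0.91, −0.62 and −0.59.

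**Figure D4:**
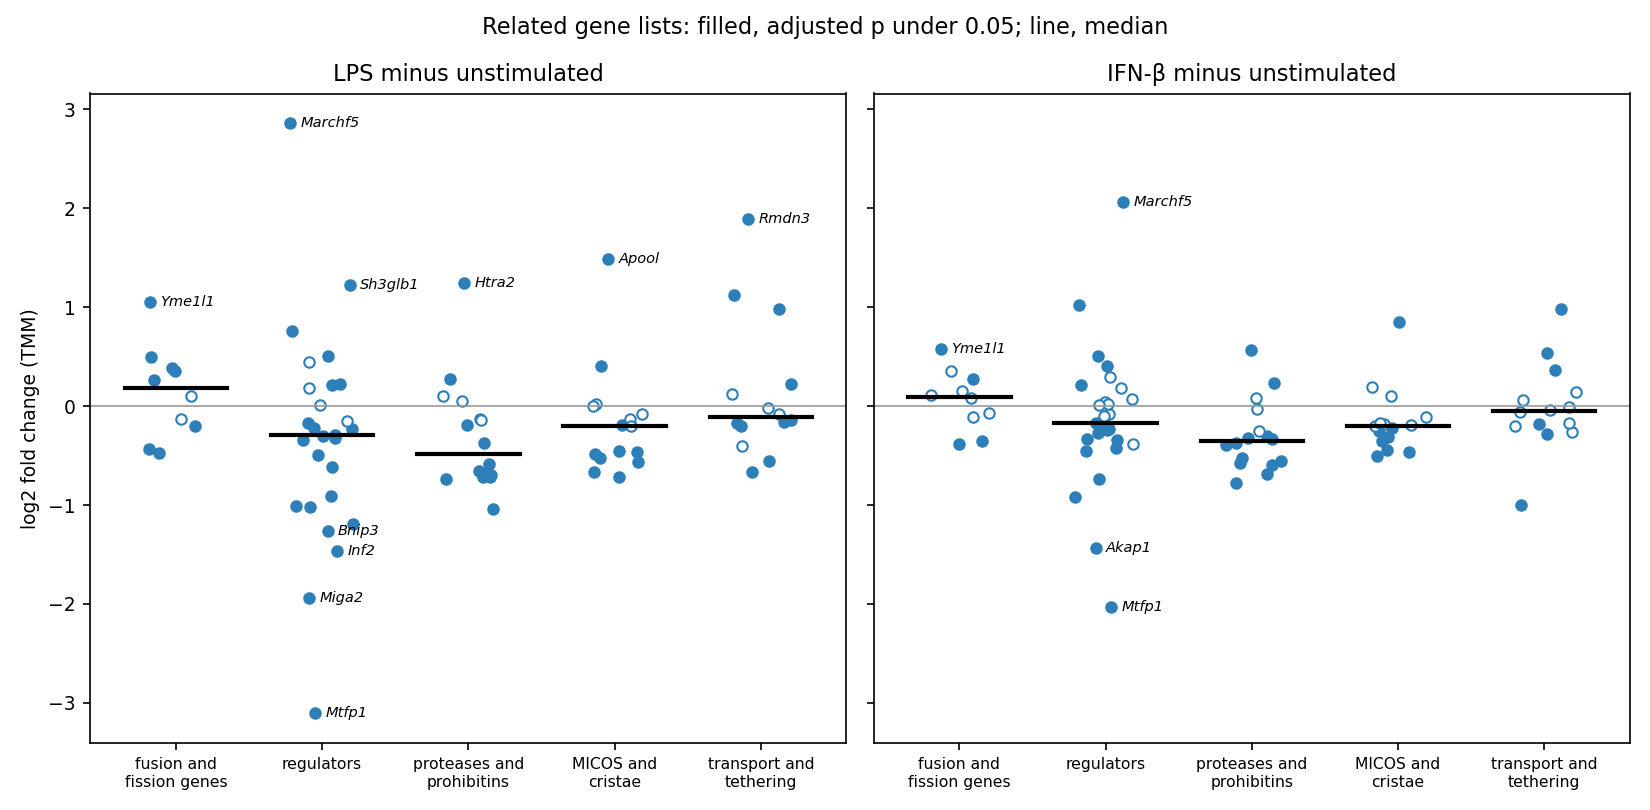
Log2 fold change on the TMM scale (vertical axis) of the 10 fusion and fission genes and of 4 related lists, with a point per tested gene, filled where the adjusted p is under 0.05, and a line at each median. The medians of the regulators, the proteases and the cristae genes are below 0 under both stimuli, from −0.48 to −0.17, and lower still with library size alone, while the median of the 10 genes is 0.18 with LPS and 0.10 with IFN-β on this scale and −0.40 and −0.21 with library size alone.

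For reference, *Ppargc1b*, the coactivator PGC-1β on which the study centred, fell by 3.57 on the log2 scale with LPS and by 0.34 with IFN-β (adjusted p = 5.62e-09 and 0.0248, edgeR), and was higher with IFN-β than with LPS by 3.23. The study describes *Ppargc1b* as maintained with IFN-β, from raw sequencing counts and from RT-qPCR relative to *Hprt*. The RT-qPCR was done at a later time than 6 h, so these measures are unlike the TMM-scaled value given here. In DCs with an shRNA against *Ppargc1b*, the study reported lower *Opa1* and *Mfn2* and unchanged *Dnm1l*. Whether the changes given here depend on *Ppargc1b* was not tested. The changes of the mitofusins were close in size under the 2 stimuli, at −0.43 and −0.39 for *Mfn1* and −0.48 and −0.36 for *Mfn2*, and relative to the median of all genes they were −0.39 and −0.37 for *Mfn1* and −0.43 and −0.34 for *Mfn2*. On the same relative scale, *Yme1l1* stood at 1.09 with LPS and 0.60 with IFN-β, *Dnm1l* at 0.42 and 0.17, *Fis1* at 0.39 and 0.29, *Mff* at 0.30 and 0.13, *Mief2* at 0.53 and 0.37 and *Mief1* at 0.15 and 0.10. *Opa1* stood at −0.16 and −0.06 and *Oma1* at −0.09 and −0.10.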

How the data were processed

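RNA sequencing of 9 libraries (3 unstimulated, 3 LPS, 3 IFN-β) was analysed. Libraries were made from rRNA-depleted total RNA. Per the submitters' processing notes, reads were trimmed with Trim Galore 0.6.0 and mapped with STAR 2.7.8a to the mouse genome (GRCm38); the strand setting of counting is not given in the sources used here. The deposited values are raw read counts for each gene in each library, made by the authors with no normalization or filter. Counts were tested in R 4.3.3 with edgeR 4.0.16: filterByExpr, TMM factors, 1 term per condition over all 9 libraries, quasi-likelihood F-tests and Benjamini-Hochberg adjustment over 16260 genes, with calls at an adjusted p under 0.05. The standard error is the absolute log2 fold change divided by the square root of F. The fit was also run on counts simulated with its own dispersions and library factors, which cannot check the choice of scaling. Total counts were 33425803 to 43735199 per library. Replicate libraries differed by more than sampling noise. Coordinates and exon lengths are from GENCODE M21, which holds 55144 of the 55471 identifiers; promoters are from RefSeq.

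The members and lists were chosen with earlier results of these data known. All 10 members are named; of each related list, the 3 called genes with the largest absolute log2 fold change in each comparison are named, and *Ppargc1b* is given as a reference. Ratios were compared by exact permutation tests. The 5 added ratios were chosen after the counts were seen. The labels give letters A to C without saying what they mark. Libraries of the same letter deviated together from their group means in all 9 pairs (r = 0.134 to 0.546). The letter was therefore taken to pair libraries, a pairing read from the data, and was fitted as a block in an alternative fit. The reported fit left the letter out, and the permutation tests did not keep the pairing. Other alternatives were DESeq2 1.42.0, other scalings, filters and thresholds, fits of only the 2 groups compared, and leaving out each library. Figures were drawn with matplotlib 3.10.9.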

Additional observations from a re-analysis of the deposited data

Results flagged for a closer look

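For *Yme1l1*, the log2 fold change with IFN-β was smaller than that with LPS, the difference being −0.47 (adjusted p = 0.00426, edgeR), with all 3 IFN-β libraries below all 3 LPS libraries. With library size alone it was −0.19 and missed the threshold (adjusted p = 0.098, edgeR). For *Dnm1l*, the difference between the IFN-β and LPS fold changes was −0.23 (adjusted p = 0.0147, edgeR), also without overlap on the TMM scale. With library size alone the *Dnm1l* difference had the opposite sign, at 0.05, and did not pass (adjusted p = 0.613, edgeR). Both were singled out because the difference between the 2 responses passed its own test.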

How the results depend on the processing

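Scaling by library size alone called 7 genes with IFN-β and 6 between IFN-β and LPS, against 4 and 2 in the reported fit, and reversed 14 fold changes. With LPS, *Dnm1l* became −0.20, *Fis1* −0.23, *Mff* −0.32, *Mief1* −0.48 and *Mief2* −0.086. With IFN-β, *Dnm1l* became −0.16, *Fis1* −0.034, *Mff* −0.20 and *Mief1* −0.23. Between IFN-β and LPS, *Dnm1l* became 0.046, *Fis1* 0.20, *Mff* 0.13, *Mief1* 0.25 and *Mief2* 0.14. With DESeq2 and upper-quartile factors, the LPS values were 0.42 and 0.29 for *Dnm1l*, 0.39 and 0.26 for *Fis1*. They were 0.30 and 0.17 for *Mff*, and 0.53 and 0.40 for *Mief2*, and all passed. *Mief1* was at 0.15 and 0.01, and only the first passed. With IFN-β, *Fis1* passed in both, at 0.28 and 0.19, and *Dnm1l*, *Mff* and *Mief1* passed in neither. Which scaling is closer to the amounts of RNA in the cells was not tested. A minimum absolute log2 fold change of 0.5 left 1 gene with LPS, 1 with IFN-β and 0 between IFN-β and LPS. Between IFN-β and LPS, 1 gene was called with no filter on low counts, 1 with only the 2 groups compared and 1 at an adjusted p under 0.01. There the replicate block called 4 genes; the cause was not tested. Beside the calls of *Dnm1l*, *Mief2*, *Opa1* and *Mff* given above, the block changed no other call of the 10 genes. *Oma1* between IFN-β and LPS was −0.018 with DESeq2 and −0.029 to 0.046 when a library was left out. Leaving out 1 library gave 7 to 8 calls with LPS, 3 to 5 with IFN-β and 1 to 3 between IFN-β and LPS, with 1 without the IFN-β library C. Of the fold changes under all alternatives, 439 kept direction and call, 16 gained a call and 8 lost it, and all 180 ratio differences moved by less than the replicate spread, though that of *Mff* per *Fis1* between IFN-β and LPS turned from −0.07 to 0.001 without the LPS library C. With 3 libraries per group, no exact permutation p can fall below 0.1.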
